A study of Mus musculus with 6 samples.

Results

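The insulin and insulin-like growth factor (IGF) signaling genes described here were 10 genes taken by name: the ligand Igf1, the receptors Igf1r and Insr, the receptor substrates Irs1 and Irs2, and the binding proteins Igfbp2, Igfbp3, Igfbp4, Igfbp5 and Igfbp6. All 10 were found among the 60354 features counted in each mouse, each as 1 protein-coding gene, and all 10 passed the filter on low counts. Whole-brain RNA was sequenced as 1 library for each of 6 mice, of which numbers 2, 5 and 10 ate the control diet and numbers 17, 22 and 26 the PLDP diet. PLDP is a porcine liver decomposition product made with a protease. All 6 mice were male C57BL/6NCrSlc, were 16 weeks old when feeding began, and were fed for 16 weeks with a modified AIN-93M diet, which held 20% PLDP for the PLDP mice and was matched in calories without PLDP for the control mice. Before the brain was taken on day 18, the mice had gone through 17 days of behavioral tests in which PLDP diet was not given, so the values describe brains some time after feeding. The comparison asks which of these genes differed in brain RNA between the diets.

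Insulin and the IGFs bind closely related receptor tyrosine kinases, which phosphorylate the insulin receptor substrates and so start signaling through PI3K and AKT and through RAS and ERK. IGF binding proteins hold IGFs outside the cell and set how much of them reaches the receptors. In the brain this signaling is known for its roles in neuronal growth and survival, synaptic function and energy balance.

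Totals on genes were between 18797061 and 23938729 counts per mouse. Levels are given as CPM, read counts scaled to a common library size with TMM factors. With edgeR's quasi-likelihood test over 18580 features, 8.6% of features had an unadjusted p under 0.05, the threshold used in the study and here (4.91% higher and 3.69% lower in the PLDP mice), and 0.0323% had a Benjamini-Hochberg adjusted p under 0.05. The words rose and fell below refer to the unadjusted threshold. The library of PLDP mouse 17 stood apart from those of the other PLDP mice: the chi-square per gene was 5.33 and 5.03 against them, and 2.44 between mice 22 and 26. Against the control mice mouse 17 was at 4.48, 4.83 and 4.54. Mice 22 and 26 were at 3.09 and 2.93 against control mouse 10, and control mice 5 and 10 were at 3.12, so the libraries did not group by diet alone. Without mouse 17, 2365 features in place of 1598 were called. Markers of projection neurons, astrocytes, oligodendrocytes and microglia were all above the filter, whereas only 2 of 10 pituitary markers were.

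In the PLDP mice Igf1r, which encodes the IGF receptor, rose by 13.1%, Irs2, which encodes a substrate of both receptors, rose by 15.6%, and Igfbp2, a binding protein of the brain and cerebrospinal fluid, fell by 7.84%. The other 7 genes, among them Igf1, Insr, Irs1 and Igfbp5, did not pass the threshold. None of the 10 had an adjusted p under 0.05, and the smallest was 0.336. Called genes thus made up 3 of 10, with 2 higher and 1 lower, beside the 8.6% of all features. Across the 10 genes the median size of the log2 fold change was 0.10, and across all features tested it was 0.07. The diets were completely separated in 2 of the 10 genes, Igf1r and Igfbp2, and in 14.2% of all features.

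**Figure D1:**
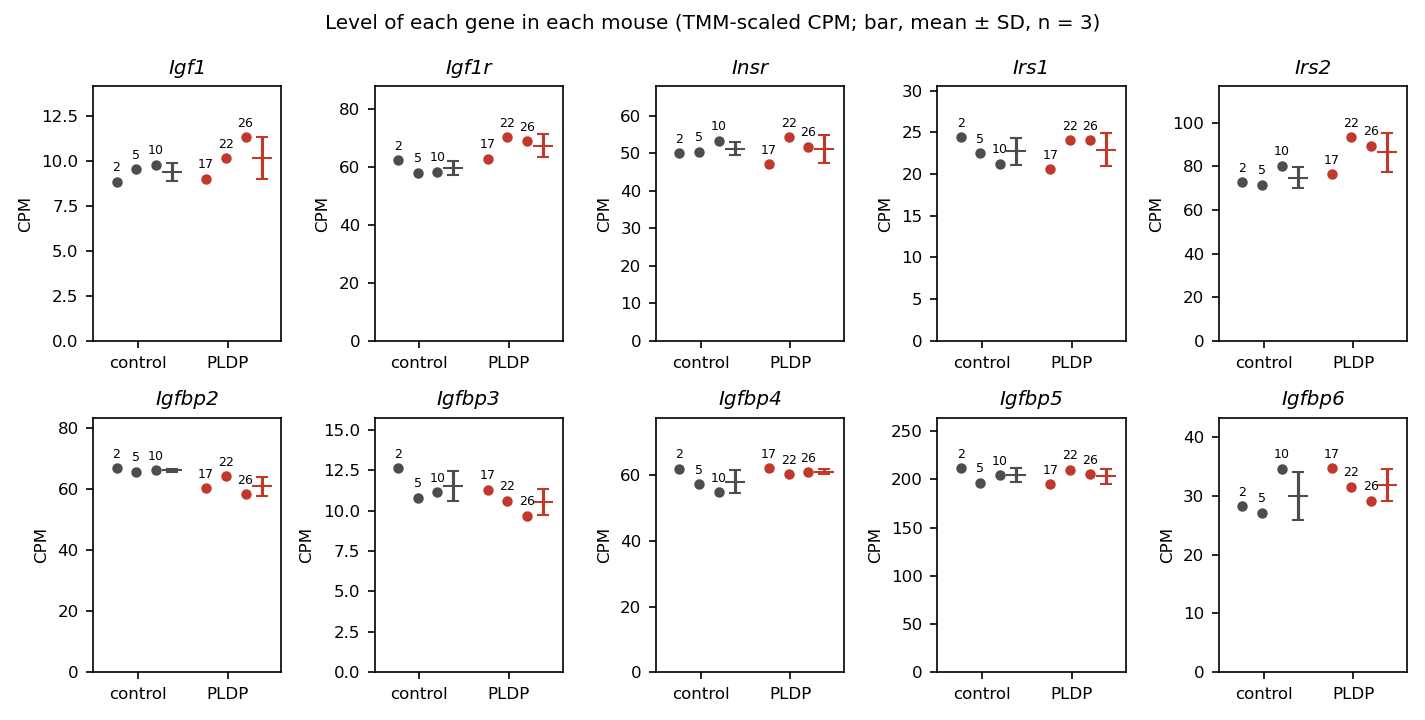
Level of each of the 10 genes in each mouse in TMM-scaled CPM (vertical axes start at 0), with points numbered by mouse and bars giving the mean ± SD of 3 mice per diet. Igf1r was between 57.9 and 62.2 CPM in the control mice and between 62.8 and 70.2 CPM in the PLDP mice, and Igfbp2 was between 65.7 and 66.7 CPM against 58.2 and 64.2 CPM.

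The bases before the start sites of the 3 genes that passed the threshold, and of Irs1 as the paralog of Irs2, are shown so that their motifs can be compared. Sequences are from RefSeq (GRCm38.p6), whose promoter table matched 9 of the 10 genes. Each is the 250 bases before the start annotated in RefSeq, 5′ to 3′ on the gene's strand. They lie at chr7:67952007-67952256 (plus strand) for Igf1r, chr8:11008930-11009179 (minus strand) for Irs2, chr1:82291440-82291689 (minus strand) for Irs1 and, for the upstream start of Igfbp2, chr1:72824230-72824479 (plus strand). These starts differ from those of the gene positions given below, which are from GENCODE M21 and start at 67952827 for Igf1r and 11008458 for Irs2. Capitals mark 3 motifs searched on both strands: the E-box CACGTG, the insulin response sequence TTGTTTTG and the Sp1 motif GGGCGG.
Igf1r: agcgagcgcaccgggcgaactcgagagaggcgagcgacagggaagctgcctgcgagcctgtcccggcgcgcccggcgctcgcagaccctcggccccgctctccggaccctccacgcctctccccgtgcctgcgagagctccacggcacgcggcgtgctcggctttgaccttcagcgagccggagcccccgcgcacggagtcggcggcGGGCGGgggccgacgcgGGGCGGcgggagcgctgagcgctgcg
Irs2: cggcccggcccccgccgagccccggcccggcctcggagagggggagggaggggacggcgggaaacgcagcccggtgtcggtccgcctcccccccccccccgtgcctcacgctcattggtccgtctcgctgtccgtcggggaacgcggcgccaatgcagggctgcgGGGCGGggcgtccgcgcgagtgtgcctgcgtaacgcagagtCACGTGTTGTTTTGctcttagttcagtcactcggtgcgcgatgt
Irs1: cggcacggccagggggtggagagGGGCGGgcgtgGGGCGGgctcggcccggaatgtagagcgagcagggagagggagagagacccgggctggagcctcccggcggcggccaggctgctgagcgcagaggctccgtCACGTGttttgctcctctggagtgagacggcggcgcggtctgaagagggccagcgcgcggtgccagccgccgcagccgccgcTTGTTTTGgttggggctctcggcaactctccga
Igfbp2: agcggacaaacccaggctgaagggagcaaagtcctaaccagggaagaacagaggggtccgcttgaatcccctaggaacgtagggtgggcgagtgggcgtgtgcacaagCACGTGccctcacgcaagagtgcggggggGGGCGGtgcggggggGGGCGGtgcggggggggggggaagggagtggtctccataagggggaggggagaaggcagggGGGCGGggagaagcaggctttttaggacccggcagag

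In Irs2 the E-box (44 to 39 bases before the RefSeq start) ran directly into the insulin response sequence (38 to 31 bases before that start). In Irs1 the same motifs were apart, at 115 to 110 and 33 to 26 bases before the start. Among 32851 promoter windows of 250 bases, 6.02% held CACGTG, 2.21% held TTGTTTTG on either strand and 0.1% held both. The joined form was found in 2 windows, those of Irs2 and Irs4. Igf1r held neither motif but 2 copies of GGGCGG, which 32.7% of windows held, and the upstream window of Igfbp2 held 3 copies and 1 E-box. The window of the other Igfbp2 start (chr1:72825137-72825386), not shown, held none of these motifs and was 56.4% G and C. The cAMP response element TGACGTCA and the TATA motif TATAAA, which 1.55% and 12.4% of windows held, were in none of the 4 shown. All 4 windows were rich in G and C, from 67.2% in Igfbp2 to 77.6% in Igf1r, with a median of 52.4% over all windows, and the Igf1r window held 42 CG pairs against a median of 6. The letters searched were chosen after these sequences had been read, and a match is a description of the sequence, not a bound site.

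Igf1 (chr10:87858265-87937042, GRCm38), the ligand made by neurons, microglia and vascular cells of the brain as well as by the liver, was at 8.85, 9.53 and 9.80 CPM in control mice 2, 5 and 10 and at 9.02, 10.2 and 11.3 CPM in PLDP mice 17, 22 and 26. The diets overlapped, since PLDP mouse 17 lay below 2 of the control mice. The log2 fold change was 0.11 with a 95% interval from -0.11 to 0.33. It was 0.03 without PLDP mouse 26, 0.07 without control mouse 2 and 0.19 without PLDP mouse 17, and passed the threshold in none of these fits. At 184 to 242 counts per mouse Igf1 was among the less deeply counted of the 10 genes, and this interval does not exclude a change in either direction.

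The other ligands were near 0 or low, and of them only Igf2 passed the filter. Ins1 had 0 counts in all 6 mice, and the 3 counts that this allows correspond to between 0.125 and 0.160 CPM per library. Ins2 had 1 to 4 counts per mouse. Igf2, a growth factor of the meninges and choroid plexus in adult brain, was at 1.97, 1.23 and 2.09 CPM in the control mice and 2.28, 2.56 and 1.98 CPM in the PLDP mice. Its log2 fold change of 0.38 did not pass the threshold (adjusted p = 0.659 by edgeR's quasi-likelihood test), and it was 0.17 without control mouse 5. Of the hormones that drive Igf1 production, Gh had 2 counts over all 6 mice and Ghrh had 4 to 8 counts per mouse.

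Igf1r (chr7:67952827-68233668), the tyrosine kinase receptor for the IGFs, was at 62.2, 57.9 and 58.3 CPM in the control mice and 62.8, 70.2 and 68.7 CPM in the PLDP mice. All PLDP mice lay above all control mice, but mouse 17 only narrowly above control mouse 2. The log2 fold change was 0.18 with a standard error of 0.055 and a 95% interval from 0.06 to 0.29 (adjusted p = 0.336 by edgeR's quasi-likelihood test). Without PLDP mouse 17 it was 0.23, with an adjusted p of 0.0304. The unadjusted p stayed under 0.05 in all 16 alternative fits, and the adjusted p ranged from 0.0304 to 0.72 over them.

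Insr (chr8:3122061-3279617), the insulin receptor, was at 50.03, 50.5 and 53.4 CPM in the control mice and at 47.1, 54.4 and 51.8 CPM in the PLDP mice. The PLDP mice spanned the whole control range, and the 95% interval of the log2 fold change ran from -0.13 to 0.12. To compare the receptors within each library, their ratio per exon length was taken. Igf1r to Insr was 1.02, 0.939 and 0.893 in the control mice and 1.09, 1.06 and 1.09 in the PLDP mice. The ratio was thus higher in each PLDP mouse than in each control mouse, with a log2 difference of 0.18. By a two-sided exact permutation test p was 0.1, the smallest that 3 mice against 3 allow, and 0.4 after adjustment over the 8 ratios compared.

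Irs2 (chr8:10984681-11008458), the docking protein that couples both receptors to PI3K, was at 72.8, 71.5 and 80.3 CPM in the control mice and at 76.5, 93.5 and 89.5 CPM in the PLDP mice. Mice 22 and 26 lay above every control mouse, whereas mouse 17 lay below control mouse 10. The log2 fold change was 0.21 with a standard error of 0.067 and a 95% interval from 0.07 to 0.35 (adjusted p = 0.36 by edgeR's quasi-likelihood test). Leaving out mouse 22 gave 0.15, which no longer passed the threshold (adjusted p = 0.614), and leaving out mouse 17 gave 0.29 (adjusted p = 0.00878). Over all 16 alternative fits the adjusted p ranged from 0.00878 to 0.821. Irs2 varied more between mice of 1 diet than most genes of its level, with an SD of log2 CPM at the 96.5 percentile of the 1000 features nearest in level. The fit moderates this spread toward that of other genes, so the interval and p of Irs2 do not rest on its own spread alone.

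Irs1 (chr1:82233101-82291416), its paralog, was at 24.4, 22.5 and 21.2 CPM in the control mice and at 20.6, 24.02 and 24.1 CPM in the PLDP mice. The diets overlapped, and the 95% interval of the log2 fold change ran from -0.16 to 0.18. Irs2 to Irs1 per exon length was 4.31, 4.60 and 5.47 in the control mice and 5.37, 5.63 and 5.38 in the PLDP mice, with 2 of the PLDP mice below control mouse 10. Over exon bases not shared with a gene on the other strand the ratio would run from 3.06 to 3.99 over the 6 mice, with the same difference between the diets. The log2 difference was 0.20, and between 0.12 and 0.29 when 1 mouse was left out. An exact permutation test gave p = 0.3, but with 3 mice against 3 this test cannot go below 0.1, so it does not show whether the substrates responded alike.

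**Figure D2:**
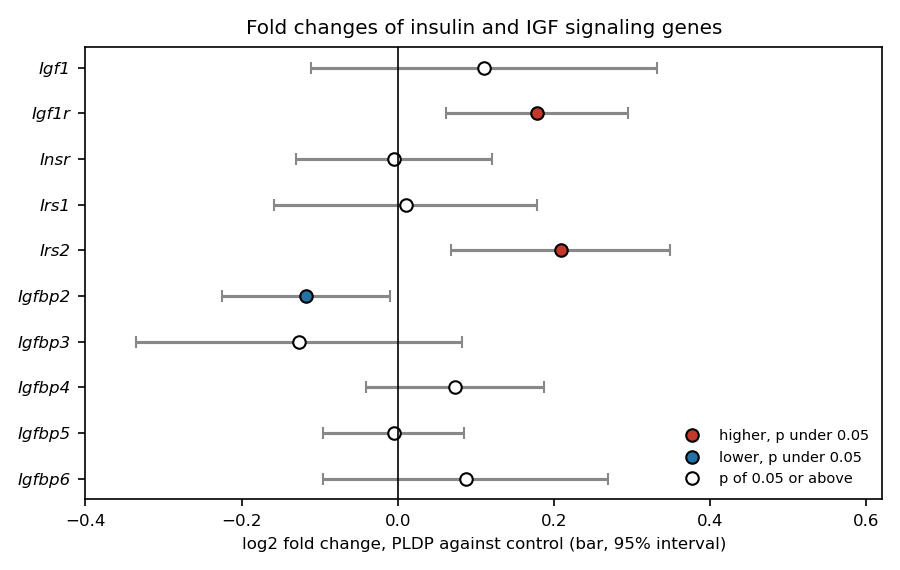
Log2 fold change of PLDP against control mice for the 10 genes from edgeR's quasi-likelihood fit, grouped by role, with bars giving 95% intervals. The intervals of Igf1r, Irs2 and Igfbp2 lie off 0, and the other 7 include it.

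Igfbp2 (chr1:72824503-72852474), which binds IGFs and is made by choroid plexus, meninges and astrocytes, was at 66.7, 65.7 and 66.1 CPM in the control mice, within 1.02 CPM of each other. It was at 60.2, 64.2 and 58.2 CPM in the PLDP mice, all below the control mice. The log2 fold change was -0.12 with a standard error of 0.051 and a 95% interval from -0.23 to -0.01 (adjusted p = 0.528 by edgeR's quasi-likelihood test). This was the least stable of the 3 calls. It was lost with DESeq2 (-0.12) and in 4 of the 6 fits that left out a mouse, which were those without control mouse 2 (-0.11), control mouse 5 (-0.12), control mouse 10 (-0.12) or PLDP mouse 26 (-0.09). The adjusted p ranged from 0.393 to 0.86 over the 16 alternative fits.

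Igfbp5 (chr1:72857932-72874884), a matrix-bound binding protein, lies 5457 bases from Igfbp2 in the opposite orientation, the genes ending toward each other. It was at 211, 197 and 205 CPM in the control mice and at 195, 210 and 206 CPM in the PLDP mice. With 3849 to 5008 counts per mouse it had the narrowest interval of the 10 genes, from -0.10 to 0.09. A change of the size seen in Igfbp2 lay outside that interval.

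Igfbp4 (chr11:99041244-99054392), which inhibits IGF action until it is cleaved, was at 62.01, 57.3 and 54.9 CPM in the control mice and 62.02, 60.3 and 60.9 CPM in the PLDP mice. Igfbp3 (chr11:7206086-7213923), the main carrier of IGFs in blood, was at 12.6, 10.8 and 11.2 CPM against 11.3, 10.6 and 9.67 CPM. Igfbp6 (chr15:102144362-102149511), which prefers the ligand Igf2, was at 28.2, 27.1 and 34.6 CPM against 34.6, 31.5 and 29.1 CPM. The diets overlapped in all 3 genes, and the log2 fold changes were 0.07, -0.13 and 0.09. Igfbp6 varied most for its level (96.9 percentile), with control mouse 10 well above the other control mice. Its log2 fold change depended on single mice, being 0.018 when control mouse 5 was left out, 0.022 when PLDP mouse 17 was and 0.20 when control mouse 10 was, and of the 6 fits that left out a mouse only the last passed the threshold (adjusted p = 0.509). In the same fits Igfbp4 was between 0.03 and 0.12 and Igfbp3 between -0.18 and -0.06, none of them past the threshold. Igfbp1, mainly a product of the liver, had 1 to 4 counts per mouse, as had Igfals, which encodes the partner of Igfbp3 in the serum complex.

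Per kilobase of exon, the levels of the 10 genes could be ordered in part. Lengths were the merged exons of all annotated transcripts, expressed or not, which were 8 for Igf1, 6 for Igf1r and 1 each for Irs1, Irs2 and Igfbp6. The order, and the size of ratios and shares between genes, hold for these lengths only. Igfbp2 (31.5 to 36.1 CPM per kilobase over the 6 mice) and Igfbp5 (32.4 to 35.2) were highest and overlapped, followed by Igfbp6 (24.4 to 31.1). Igfbp4 (12.4 to 14.0) and Irs2 (11.3 to 14.8) came next and overlapped. Igf1r (3.45 to 4.18), Insr (3.42 to 3.96) and Igfbp3 (3.09 to 4.03) could not be ordered beyond the spread of the mice, whereas Igf1 (0.894 to 1.14) lay apart at the low end. Irs1 (2.25 to 2.67) came between them over its whole exon length, but its place is uncertain: 2822 of its exon bases overlap a gene on the other strand, and whether reads there were counted is not known. Over the unshared bases alone Irs1 would be at 3.26 to 3.87, which overlaps Igf1r, Insr and Igfbp3.

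Within the summed per-kilobase level of the 5 binding proteins, Igfbp2 took 31.5%, 32.6% and 30.6% in the control mice and 28.6%, 30.2% and 29.0% in the PLDP mice. Its share was lower in every PLDP mouse, with a log2 difference of -0.11 (exact permutation p = 0.1, adjusted p = 0.4). The shares of the other 4 overlapped between the diets. Igf1 relative to that sum was 0.00779, 0.00882 and 0.00846 in the control mice and 0.00800, 0.00890 and 0.0105 in the PLDP mice, which also overlapped (exact permutation p = 0.4).

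**Figure D3:**
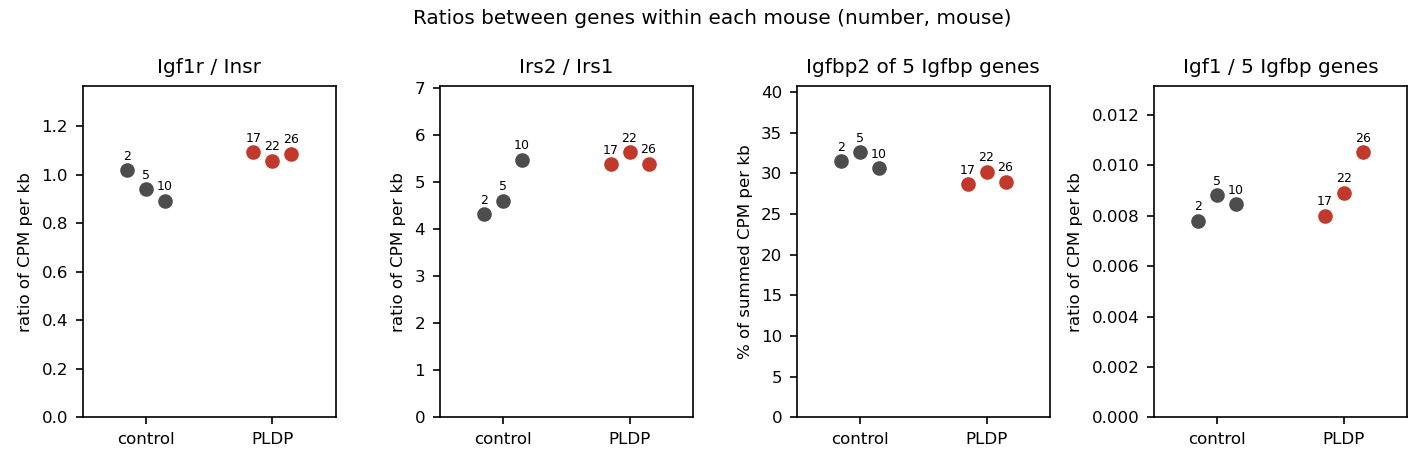
Ratios within each mouse from levels per kilobase of exon, with points numbered by mouse and vertical axes from 0. Igf1r to Insr lies between 0.893 and 1.02 in the control mice and between 1.06 and 1.09 in the PLDP mice, and the share of Igfbp2 in percent is the other of these in which the diets do not overlap.

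Among the PLDP mice, mouse 17 had the lowest level in 6 of the 10 genes, which were Igf1, both receptors, both substrates and Igfbp5. Mouse 26 was lowest for Igfbp2, Igfbp3 and Igfbp6. The rise of Igf1r and Irs2 was therefore carried mainly by mice 22 and 26, and the fall of Igfbp2 mainly by mice 17 and 26.

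Genes further along the pathway were read from a list of 102 other genes, of which 96 were tested. Unadjusted p was under 0.05 for 7 of them (7.29%), near the 8.6% of all features, with 5 higher and 2 lower and none with an adjusted p under 0.05. The fold changes were positive for 45 and negative for 51, with a median of -0.0034 against -0.0006 for all features. No gene passed among the 14 of RAS and ERK signaling, the 7 tested binding proteins and proteases, or the 4 further receptors.

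Slc2a1, which encodes the glucose transporter of the blood-brain barrier, was at 83.1, 90.2 and 94.5 CPM in the control mice and at 95.5, 99.9 and 105 CPM in the PLDP mice, without overlap (log2 fold change 0.17, adjusted p = 0.363). It lost the threshold without control mouse 2 (log2 fold change 0.12). Of 10 endothelial markers, Pecam1 (0.25) and Flt1 (0.14) were also called higher with the diets apart, while the other 8 overlapped and the sum was 225 to 233 CPM in the control mice and 228 to 250 CPM in the PLDP mice. The part of endothelium in the value of Slc2a1 was not tested. Ddit4, a stress-induced inhibitor of mTOR signaling, fell from 62.8, 59.3 and 67.5 CPM to 56.8, 54.4 and 55.9 CPM (-0.18, adjusted p = 0.321) and kept its threshold in all 16 alternative fits. Foxo6, a forkhead factor of neurons, was at 14.4, 14.9 and 11.7 CPM against 16.6, 15.6 and 16.6 CPM (0.25, adjusted p = 0.452), and without control mouse 10 the value was 0.15 and did not pass. Shc3, a neuronal adaptor toward RAS, overlapped between the diets at 135, 138 and 128 CPM against 133, 152 and 160 CPM (0.15, adjusted p = 0.45). Shc3 was lost without control mouse 10, PLDP mouse 22 or PLDP mouse 26, where its log2 fold change was between 0.09 and 0.13. Without PLDP mouse 17 it was 0.23 (adjusted p = 0.0115 by edgeR's quasi-likelihood test).

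Ptpn1, a phosphatase that acts on the insulin receptor, also overlapped, at 53.5, 51.9 and 56.2 CPM against 55.4, 60.7 and 60.6 CPM (log2 fold change 0.13, adjusted p = 0.519). Eif4ebp1, a repressor of translation controlled by mTOR, was at 1.68, 1.13 and 1.79 CPM against 2.46, 2.22 and 1.92 CPM (0.53, adjusted p = 0.515), a low level with 25 to 53 counts per mouse. Pik3cb, a catalytic subunit of PI3K, fell from 30.4, 31.4 and 31.0 CPM to 26.6, 28.5 and 29.2 CPM (-0.14, adjusted p = 0.562). Ptpn1 was lost without control mouse 2 or 5 or PLDP mouse 22 or 26 (lowest log2 fold change 0.10), Eif4ebp1 without control mouse 5 or PLDP mouse 17 or 22 (lowest 0.35), and both with DESeq2. Pik3cb was lost with DESeq2, with no filter and in each fit that left out a mouse except PLDP mouse 26 (nearest to 0, -0.10).

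**Figure D4:**
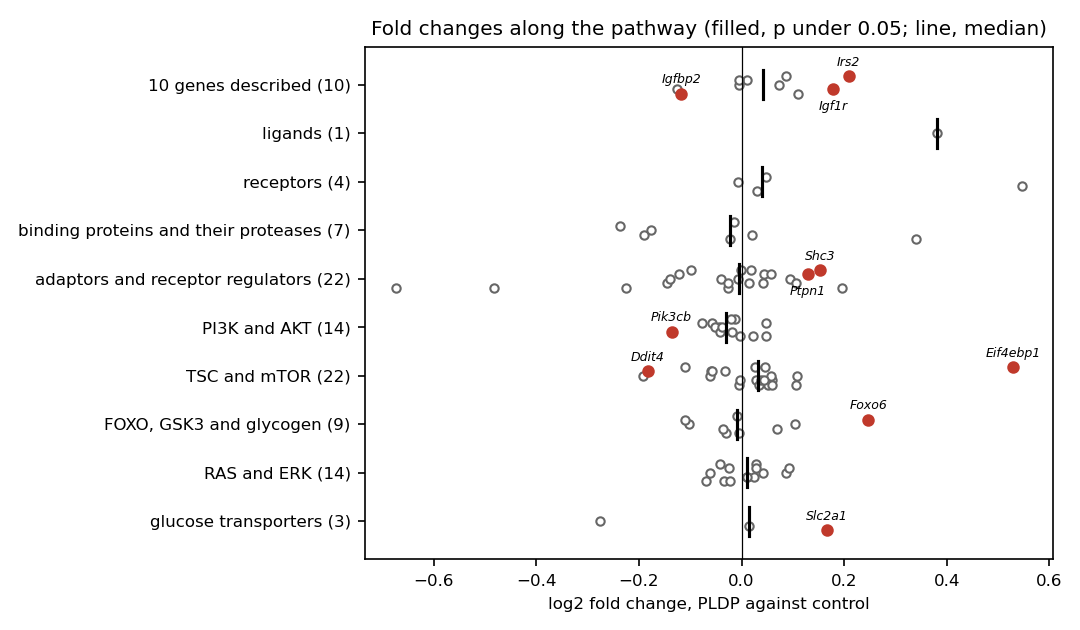
Log2 fold change of each tested gene by pathway group, with the number of tested genes in brackets, the 10 genes described in the top row and vertical lines at group medians. Filled points are genes with an unadjusted p under 0.05, which are 3 in the top row and 7 in the other 9 groups.

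Over the 6 mice, the genes whose log2 CPM followed Igf1r most closely among 14229 features with a gene symbol were Nova2 (Pearson r = 0.999), Fezf2 (0.995), Garem1 (0.988), Nsun7 (0.986) and Ncan (0.983). Nova2 encodes a neuronal splicing regulator, Fezf2 a transcription factor of deep-layer projection neurons and Ncan a proteoglycan of the brain matrix. The 6 points share their libraries and the split by diet, and such values are the extremes of a large search.

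Whole-brain RNA mixes many cell types, and fewer cells of a type cannot be told apart from less RNA per cell. Several marker lists differed between the diets, as did the genes that passed. The summed level of 10 projection neuron markers was 3380 to 3487 CPM in the control mice and 3648 to 3708 CPM in the PLDP mice, with 5 markers called higher, as Igf1r and Irs2 rose. Irs2 did not follow this sum mouse by mouse: control mouse 10 had the lowest sum (3380 CPM) with the highest control Irs2 (80.3 CPM). PLDP mouse 17 had a sum of 3648 CPM, with Irs2 (76.5 CPM) below that of control mouse 10. The sum over 10 choroid plexus markers was 775.4 to 833 CPM in the control mice and 609 to 774.7 CPM in the PLDP mice, with 2 called lower, as Igfbp2 fell. That separation rested on Ttr, which made up 87.2% of the sum: the other 9 choroid plexus markers each overlapped between the diets, and their sum was 96.1 to 104 CPM against 73.3 to 105 CPM. Brainstem markers (161 to 176 CPM against 93.7 to 128 CPM, 7 called lower of 9 tested) and hypothalamic markers (63.6 to 64.7 CPM against 52.6 to 59.5 CPM, 2 called lower of 8 tested) were also lower in every PLDP mouse. Sums of meningeal fibroblast markers (125 to 149 CPM against 131 to 147 CPM, none called) and astrocyte markers (3060 to 3114 CPM against 3009 to 3218 CPM, 2 called lower) overlapped, although the 9 astrocyte markers other than Slc1a2 summed to 1595 to 1653 CPM against 1536 to 1592 CPM. Leaving out the gene with the highest level kept the sums apart for projection neurons, brainstem and hypothalamus. In none of these lists was a marker at 0 in every mouse. Sums of the remaining lists, among them endothelium, mural cells, microglia and oligodendrocytes, also overlapped between the diets. The part of such shifts in the values of Igf1r, Irs2 and Igfbp2 was not tested.

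**Figure D5:**
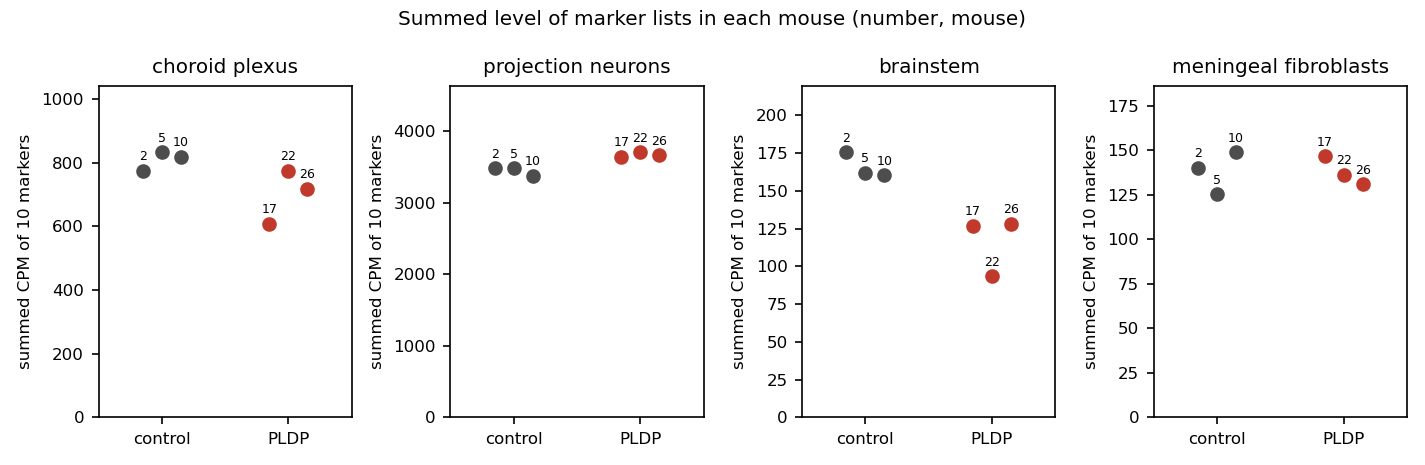
Summed CPM of 10 markers each of choroid plexus, projection neurons, brainstem and meningeal fibroblasts in each mouse, with points numbered by mouse and vertical axes from 0. Projection neuron markers are higher, and brainstem markers lower, in every PLDP mouse than in every control mouse. The choroid plexus sum is also lower, which rests on Ttr alone, and meningeal fibroblast markers overlap.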

How the data were processed

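RNA was sequenced from the whole brain of 6 mice with a stranded kit for polyadenylated RNA and paired reads of 150 bp. The authors deposited whole-number read counts per feature, 1 file per mouse, without normalization. The submitters' processing notes name cutadapt 2.9, HISAT2 2.2.0, featureCounts 2.6.0, DESeq2 1.6.3 and the builds GRCm38 and GRCh38, without saying how each was used. Use of strand in counting is not given in the sources used here. Irs1 shares 2822 exon bases with Gm9747 on the other strand, which had 0 counts, and Irs2 shares 162 with 9530052E02Rik, which had at most 26.

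Symbols and positions were taken by Ensembl identifier from GENCODE M21 (GRCm38). Counts were filtered with filterByExpr (minimum count 10, minimum total 15), scaled by TMM and tested with edgeR 4.0.16 (R 4.3.3) with diet as the only term. A call is an unadjusted p under 0.05, with Benjamini-Hochberg adjustment over all 18580 features beside it. Intervals are 95% intervals from the fit. Ratios were tested by exact permutation. Library pairs were compared by chi-square per gene, and none was as close as counting noise (lowest 2.36).

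The 10 genes, the pathway list and the 17 marker lists were chosen with earlier results of these data known. The text names all 10 genes, the ligands Igf2, Ins1 and Ins2, every pathway gene called, and the 5 genes nearest in pattern to Igf1r, which had the smallest p of the 10. Other genes near 0 counts were named, and marker sums without each list's highest gene and lengths without shared exon bases were added, after the values were seen. Of the 16 alternatives, 10 were other filters, scalings and tests, with limma 3.58.1 and DESeq2 1.42.0 among them, and 6 left out a mouse each. The fits were tested on simulated data. Protein sequences were not used here.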

Additional observations from a re-analysis of the deposited data

How the results depend on the processing

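Of the 3 genes called, Igf1r kept an unadjusted p under 0.05 in 16 of 16 alternatives, Irs2 in 15 and Igfbp2 in 11, each with its direction in all 16. With DESeq2 926 features in all and 4 genes of the pathway list were called. Leaving out 1 mouse at a time moved the number of pathway genes called from 4 (without control mouse 2) to 16 (without PLDP mouse 17) and that of all features from 1133 (without control mouse 2) to 2365 (without PLDP mouse 17). Igf1 ranged from 0.030 to 0.19, Igf2 from 0.17 to 0.52 and Igfbp6 from 0.018 to 0.20 on the log2 scale. Fold changes near 0 changed sign among these fits, with log2 values from -0.057 to 0.052 for Insr, -0.037 to 0.081 for Irs1 and -0.032 to 0.026 for Igfbp5, and a log2 difference from -0.025 to 0.046 for the share of Igfbp5 among binding proteins; the cause was not tested. Scalings moved the median of all features by at most 0.0055. The share of all calls that were higher was 57.1%, 62.2% with upper-quartile factors and 51.4% without PLDP mouse 22. No paired analysis was possible because the diets share no mouse numbers. With 3 mice per diet the p-values of the fits rest on the spread between these mice, moderated by that of other genes. With 3 against 3 the exact tests of ratios cannot go below 0.1. Among the genes named here, depth limits those near 0 counts, Eif4ebp1 and Igf2.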
